A study of Mus musculus with 12 samples.

Results

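Most of the 33 genes described here make cholesterol, control its synthesis through the sterol regulatory element-binding proteins (SREBPs), or move and export it under the liver X receptors (LXRs). Fasn and Scd2 instead make and desaturate fatty acids, and were kept as lipid targets of SREBPs. The genes were taken by symbol from the deposited table of read counts, where all 33 were found among 24934 genes. They were kept in 3 sets: 18 synthesis genes, 8 genes of SREBP control and lipid targets, and 7 genes of LXR control, efflux and trafficking.

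Messenger RNA was sequenced from BV2 cells, an established mouse microglial line, in 12 libraries. The 4 Acacetin libraries came from cells given 10 µM acacetin, a plant flavone. The 4 OGD libraries came from cells put through oxygen and glucose deprivation and then re-oxygenation, a culture model of stroke, and the 4 Control libraries from cells labelled as controls. The treatment label of the Acacetin group does not itself name OGD, and the group was read as OGD followed by acacetin from the design text of the series. All groups are the same immortalised line with no genetic change named, so they stand for cultured BV2 cells and not for microglia in tissue.

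Cholesterol is built from acetyl-CoA through mevalonate, farnesyl diphosphate, squalene and lanosterol. When the sterol content of the endoplasmic reticulum falls, SCAP carries SREBPs to the Golgi, where they are cut free to switch on synthesis and lipid genes, and INSIG proteins hold SCAP back when sterols are plentiful. LXRs are switched on by oxysterols and drive export pumps such as ABCA1 and ABCG1, a pathway known in microglia for handling cholesterol taken up with myelin and dead cells.

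Library depth ran from 16427886 to 32693066 counted reads. In OGD 2 and OGD 3, 13.1% and 21.3% of counted reads were 18S ribosomal RNA, against 0.137% to 1.86% in the other 10 libraries. The slope of log2 expression on log2 gene length, relative to the mean of all libraries, ran from -0.21 in Acacetin 1 to 0.29 in Acacetin 3. All 10 myeloid markers examined were detected, and their summed scaled count (CPM) was 2723 to 4223 CPM in Acacetin, 3249 to 4618 CPM in OGD and 3618 to 4364 CPM in Control libraries. The summed level of each list of astrocyte, neuron, oligodendrocyte and fibroblast markers stayed at or under 1.50 CPM in every library, and 11 of those 15 markers had reads. The remaining Aqp4, Syt1, Mog and Dcn were not analysed here. Members below are given with and without OGD 2 and OGD 3 wherever leaving those libraries out changed a call.

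Levels within a gene are given as CPM, where each library's reads are brought to the same total, and levels between genes as FPKM, which also divides by gene length. A member was called higher or lower when edgeR's quasi-likelihood test, fitted to all 13249 genes that passed a filter on low counts, gave it an adjusted p under 0.05. All 33 members passed that filter. Errors after a log2 fold change are standard errors (SE) and errors after a mean are standard deviations (SD) over n = 4 libraries. Nothing in the labels says that replicates of a group are cultures of their own, so p-values measure only the spread between these samples, which may be technical. In bulk RNA, fewer cells of a kind and less RNA per cell cannot be told apart.

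In OGD against Control, 6 members were higher and 5 lower, and 22 did not pass the test. The 11 called members are 33.3% of the 33, against 28.8% of all tested genes, so the share was near that of any gene. The higher members were the synthesis genes Acat2, Lss and Ebp, the SREBP escort gene Scap, the fatty acid gene Fasn and the LXR gene Nr1h3. The lower members were the synthesis genes Mvk, Pmvk and Tm7sf2, the SREBP restraint gene Insig2 and the other LXR gene, Nr1h2. Synthesis genes were thus called in both directions, but not equally firmly. The higher calls of Acat2, Lss and Ebp held in 15, 17 and 18 of 23 alternative settings, and were lost without both OGD 2 and OGD 3. The lower calls of Mvk, Pmvk and Tm7sf2 held in all 23. The median log2 fold change of synthesis genes was -0.03, with -0.07 for SREBP control and lipid targets and -0.31 for the LXR set, beside 0.03 for all tested genes. OGD and Control libraries did not overlap in 14 members, against 36% of all tested genes, and these were 5 higher (19% of all genes) and 9 lower (17%). DESeq2 called 6 members higher and 9 lower, against 17.2% and 16% of all tested genes.

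In Acacetin against OGD, 0 members passed the test, and so did 0 of all 13249 genes (0%) by edgeR. By DESeq2, 37 genes (0.279%) and 0 members passed. At an unadjusted p under 0.05, edgeR gave 1 member, Scd2, and 685 genes (5.17%). In Acacetin against Control, 8 members were higher, 4 lower and 21 not called, and the 12 called are 36.4% of the members, against 26.9% of all tested genes. The higher members were Acat2, Lss, Hsd17b7, Sc5d, Scap, Fasn, Nr1h3 and Soat1, and the lower ones Mvk, Tm7sf2, Insig2 and Npc2. This comparison uses the same Control libraries as OGD against Control and the same Acacetin libraries as Acacetin against OGD, so the 3 sets of values are not independent and are set side by side only.

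**Figure D1:**
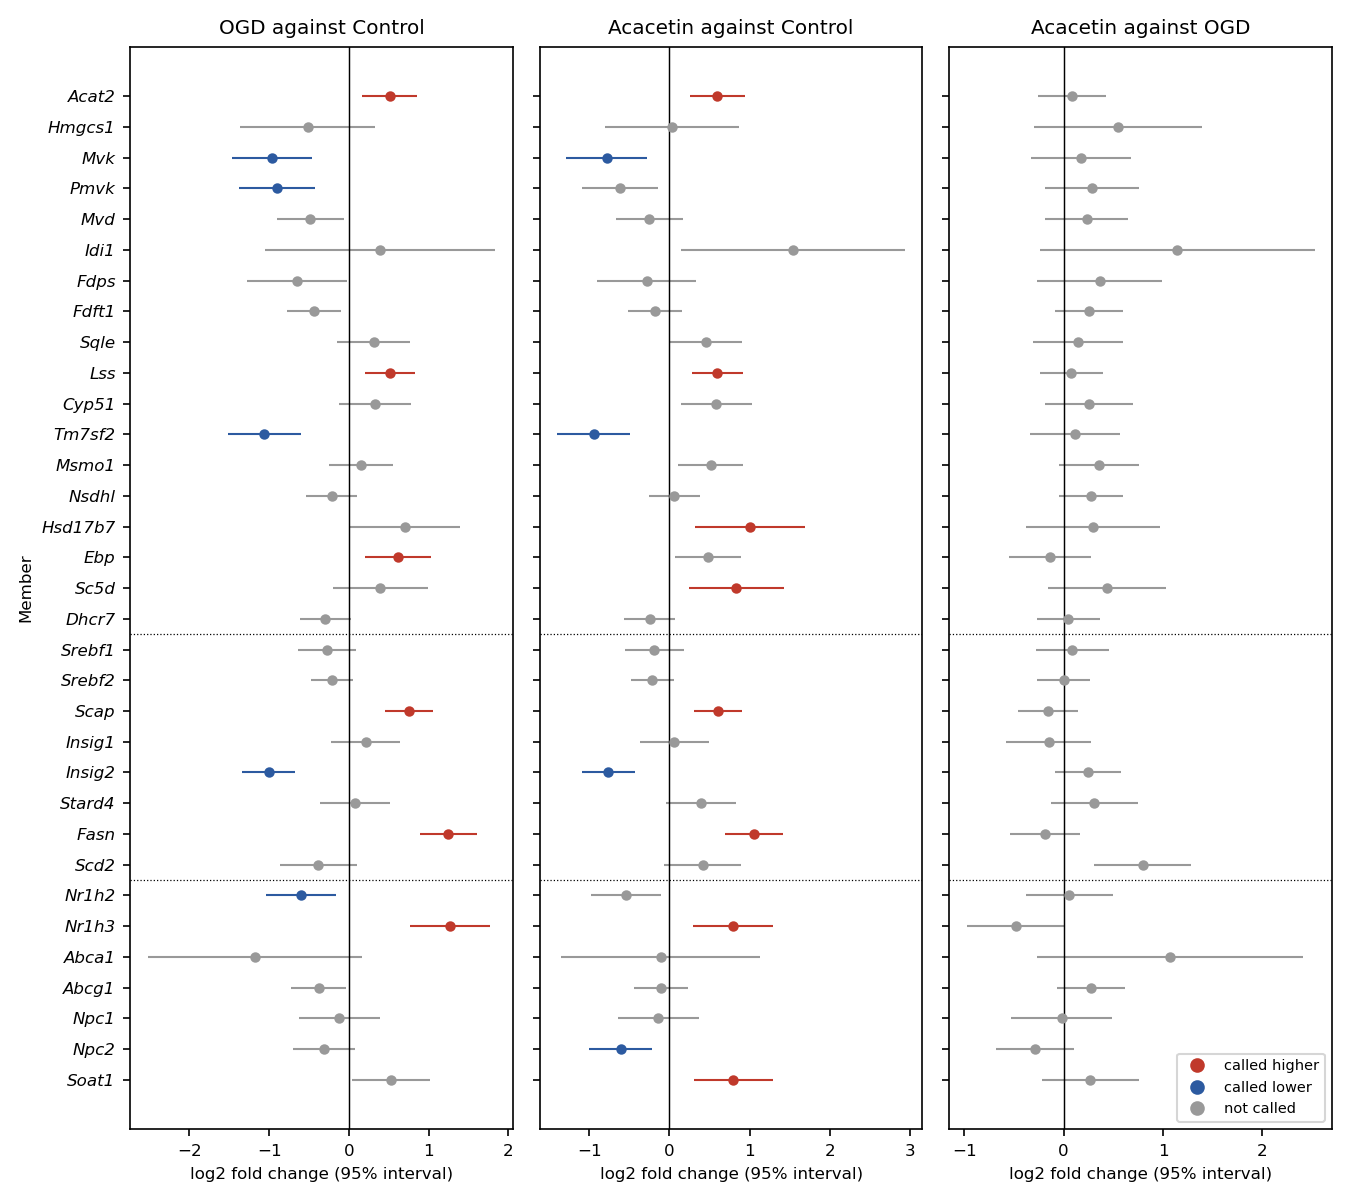
Log2 fold change of each of the 33 members (points) with its 95% interval (lines) in OGD against Control, Acacetin against Control and Acacetin against OGD, from edgeR. Dotted lines part the synthesis, SREBP and LXR sets. Red and blue points passed the test as higher and lower, 6 and 5 members in the first panel, 8 and 4 in the second and 0 in the third, and each panel has its own horizontal scale.

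**Figure D2:**
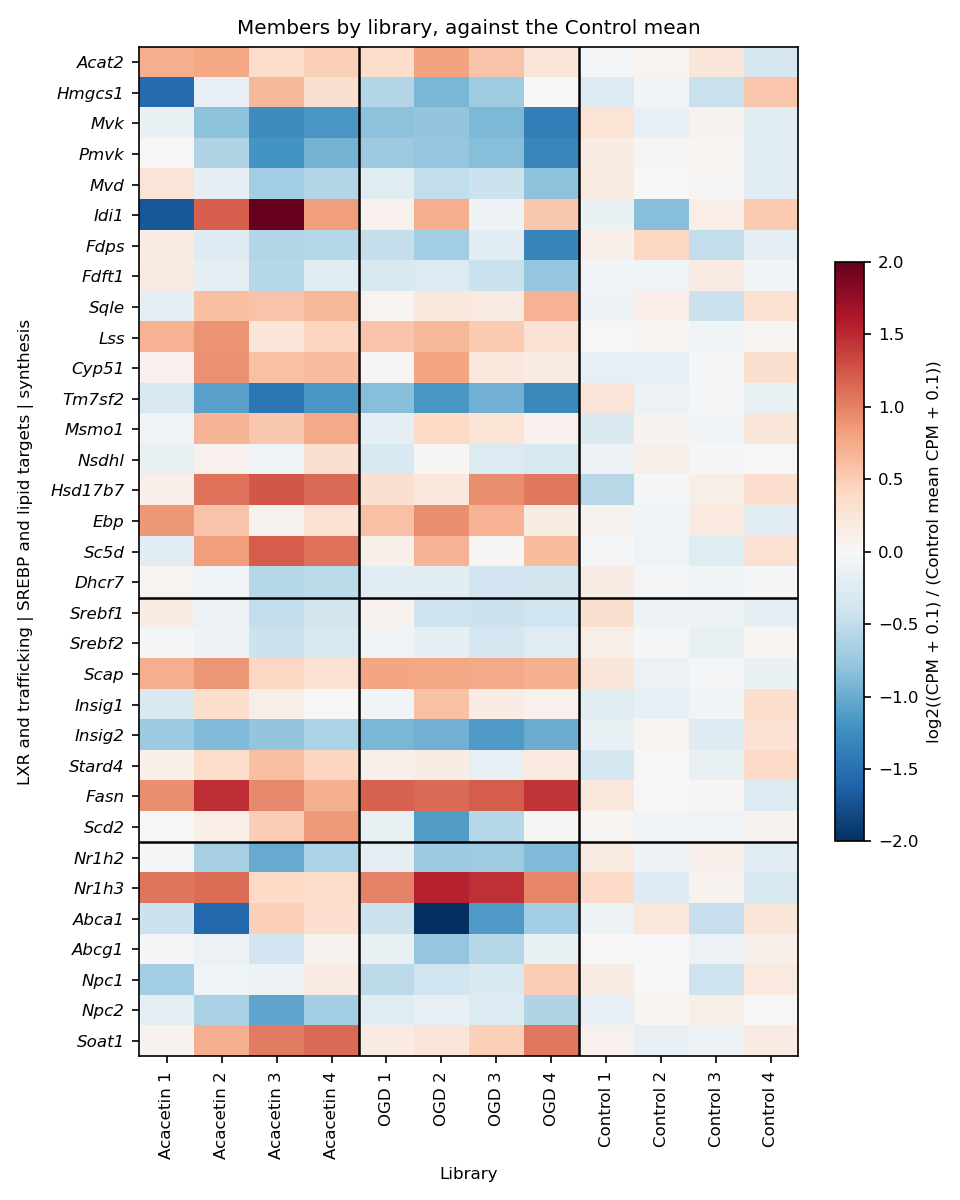
Each member (rows) in each library (columns), as log2 of its CPM plus 0.1 over the Control mean plus 0.1, with the colour scale ending at -2 and 2. Black lines part the 3 groups of libraries and the 3 sets of genes, with synthesis at the top. Fasn and Nr1h3 are red across the Acacetin and OGD libraries, and Tm7sf2, Mvk and Insig2 are blue.

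The libraries of a group were not equally alike. The median coefficient of variation of the 33 members was 24.2% among Acacetin libraries, 18.01% among OGD libraries and 15.4% among Control libraries, beside 27.4%, 19.6% and 15.8% for all tested genes in the same order of groups. Acacetin 1 was the highest Acacetin library for 12 members and the lowest for 13. It is also the library with the most negative length slope, and Acacetin 3, with the most positive, was the lowest for 15 members. Beyond the fit with a trend on gene length removed, the part of these slopes in the members' values was not tested.

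Several promoters of these genes are shown because sterol genes of all 3 sets can share control elements near their starts. Of the 33 members, 26 had a promoter window in RefSeq (build GRCm38.p6), and the 250 bases before the start were searched on both strands. The letters searched were CCAAT, the box bound by the factor NF-Y that works beside SREBPs, TCACNCCAC, a sterol regulatory element, and CACGTG, an E-box. AGGTCA followed after any 4 bases by AGGTCA was searched as well, an exact form of the DR4 repeat to which LXRs bind. In the lines that follow, capitals mark these letters, and ATTGG is CCAAT read on the other strand. Hmgcs1 is shown as the member whose window holds the exact letters TCACNCCAC. Then follow 3 members higher in OGD (Lss, Ebp and Fasn) and 3 lower (Mvk, Tm7sf2 and Insig2).
Hmgcs1, chr13:119690101-119690350, plus strand: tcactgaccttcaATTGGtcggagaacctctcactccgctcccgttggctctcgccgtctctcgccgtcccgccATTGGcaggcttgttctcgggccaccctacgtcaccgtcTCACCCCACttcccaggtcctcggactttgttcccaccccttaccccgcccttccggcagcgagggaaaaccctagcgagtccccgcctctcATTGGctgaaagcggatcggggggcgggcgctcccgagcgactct
Lss, chr10:76531355-76531604, plus strand: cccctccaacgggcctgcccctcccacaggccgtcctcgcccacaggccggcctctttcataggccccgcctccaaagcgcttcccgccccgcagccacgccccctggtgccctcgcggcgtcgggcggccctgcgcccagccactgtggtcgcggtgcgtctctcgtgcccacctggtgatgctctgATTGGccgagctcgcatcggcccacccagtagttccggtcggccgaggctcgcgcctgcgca
Ebp, chrX:8193513-8193762, minus strand: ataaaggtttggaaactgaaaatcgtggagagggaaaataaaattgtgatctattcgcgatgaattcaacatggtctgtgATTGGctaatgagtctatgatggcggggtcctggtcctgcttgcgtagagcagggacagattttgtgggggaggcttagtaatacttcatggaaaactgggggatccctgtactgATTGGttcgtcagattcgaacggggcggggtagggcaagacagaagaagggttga
Fasn, chr11:120824548-120824797, minus strand: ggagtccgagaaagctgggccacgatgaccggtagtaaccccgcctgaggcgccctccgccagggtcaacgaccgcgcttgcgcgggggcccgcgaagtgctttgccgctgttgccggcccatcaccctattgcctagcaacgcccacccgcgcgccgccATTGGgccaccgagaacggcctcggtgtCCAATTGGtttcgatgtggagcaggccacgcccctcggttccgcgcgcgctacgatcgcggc
Mvk, chr5:114444019-114444268, plus strand: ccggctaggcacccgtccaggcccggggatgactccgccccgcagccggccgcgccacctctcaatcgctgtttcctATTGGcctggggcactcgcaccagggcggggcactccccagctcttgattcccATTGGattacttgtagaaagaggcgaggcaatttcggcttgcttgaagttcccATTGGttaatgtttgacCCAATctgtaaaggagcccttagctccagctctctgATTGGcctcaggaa
Tm7sf2, chr19:6067851-6068100, minus strand: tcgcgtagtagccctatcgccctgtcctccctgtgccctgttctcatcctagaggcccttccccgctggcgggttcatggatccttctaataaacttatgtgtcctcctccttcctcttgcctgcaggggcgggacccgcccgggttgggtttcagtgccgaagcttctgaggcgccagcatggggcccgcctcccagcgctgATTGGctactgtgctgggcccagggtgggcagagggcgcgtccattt
Insig2, chr1:121332590-121332839, minus strand: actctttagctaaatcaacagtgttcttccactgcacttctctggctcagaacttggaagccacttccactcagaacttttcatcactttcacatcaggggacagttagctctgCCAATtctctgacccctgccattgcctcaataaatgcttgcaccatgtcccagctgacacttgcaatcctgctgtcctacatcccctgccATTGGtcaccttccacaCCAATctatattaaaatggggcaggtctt

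The CCAAT box was in 20 of the 26 windows, and in 34.53% of 27025 RefSeq windows of the same length and 36.68% of those of 9688 other tested genes. It was in 13 of 15 synthesis windows, 5 of 6 of the SREBP set and 2 of 5 of the LXR set. Of the members called in OGD against Control 7 of 11 held it, and of those not called 13 of 15. These are few windows, and the difference was not tested. The called members printed above hold it, with 1 copy in Lss and Tm7sf2, 2 in Ebp, 3 in Fasn and Insig2, and 5 in Mvk. Acat2, Scap and Nr1h3, called higher, and Nr1h2, called lower, have windows without the box and are not printed. The printed windows thus do not stand for all called members. In Fasn a forward and a reverse copy run into each other as CCAATTGG. The sterol regulatory element TCACCCCAC lay 137 to 129 bases before the start of Hmgcs1. The exact letters TCACNCCAC were in no other member's window, against 1.03% of all windows. Sterol elements with other letters, or near other starts of a gene, were not searched, so this does not show that the other members lack one. The E-box was in the windows of Abca1, Hsd17b7, Insig1 and Sc5d, against 6.04% of all windows and 8.7% of those of other tested genes. The exact DR4 letters were in none of the 26, but also in only 3 of all 27025 windows (0.01%). Their absence thus says nothing about LXR sites with other letters, which were not searched. A match of letters is a description and not evidence of binding. Fdps, Fdft1, Sqle, Stard4, Scd2, Abcg1 and Npc1 had no window in the table.

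The synthesis genes differed widely in level. Per length, Pmvk averaged 33.6 FPKM in Acacetin, 23.4 in OGD and 48.3 in Control libraries, and Mvd, its next enzyme, 32.1, 23.3 and 35.6 FPKM in Acacetin, OGD and Control. Fdft1, Ebp and Acat2 followed in Control libraries at 19.96, 12.6 and 9.92 FPKM. At the other end, Idi1, the isomerase of the isoprenoid unit, averaged 0.593 FPKM in Acacetin, 0.205 in OGD and 0.168 in Control libraries. Hsd17b7, Fdps and Hmgcs1 lay near it at 0.283, 0.973 and 1.02 FPKM in Control. The level of Fdps is uncertain, because 26.7% of its exon bases lie on the same strand as exons of Gm43738 in GENCODE M21. Gm43738 took 5717 to 17093 reads per library and Fdps 53 to 155.

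**Figure D3:**
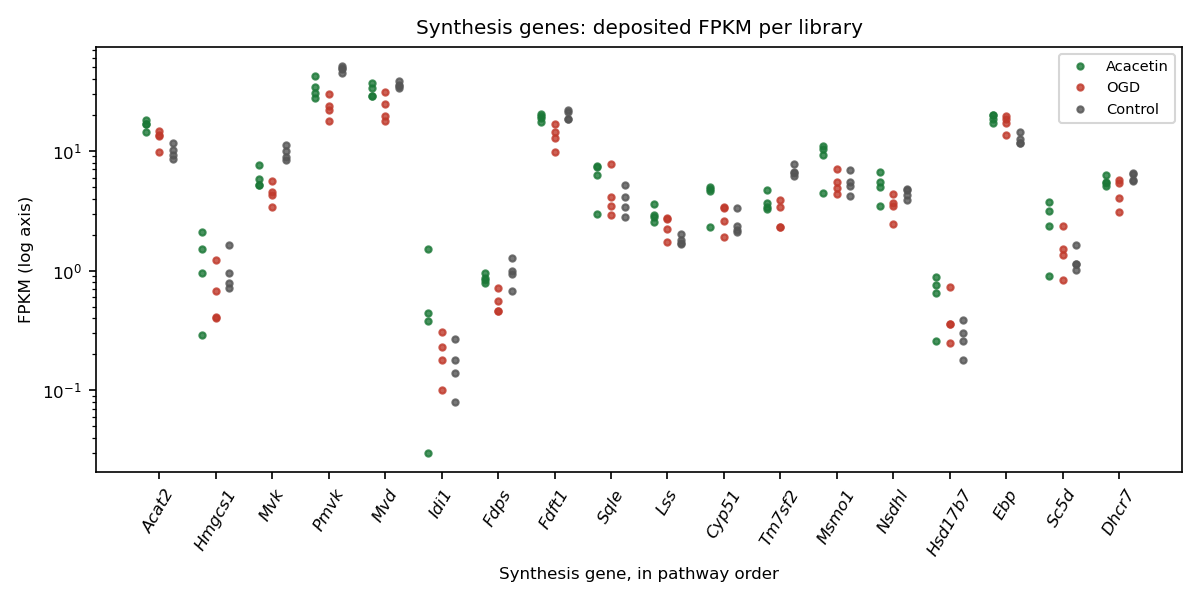
Deposited FPKM of the 18 synthesis genes in pathway order, on a log axis, with a point per library for Acacetin (green), OGD (red) and Control (grey). The levels range from Idi1, under 2 FPKM in all 12 libraries, to Pmvk, at 17.9 to 50.9 FPKM.

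The first steps lead to mevalonate. Acat2 (ENSMUSG00000023832.15, chromosome 17) encodes the thiolase that joins acetyl-CoA units. It had 49.2, 51.1, 38.4 and 41.3 CPM in Acacetin 1 to 4, 38.6, 52.1, 44.1 and 35.4 in OGD 1 to 4, and 29.2, 31.1, 35.3 and 23.5 in Control 1 to 4. All Acacetin and all OGD libraries lay above all Control libraries, though OGD 4 was barely above Control 3. The log2 fold change was 0.51 ± 0.16 in OGD against Control (adjusted p = 0.0277) and 0.60 ± 0.16 in Acacetin against Control (adjusted p = 0.0148). Without both OGD 2 and OGD 3 the OGD value was 0.32 and was not called. The OGD value also was not called when OGD 2, OGD 3, Control 1, Control 2 or Control 4 was left out (log2 fold change 0.39 to 0.53). By limma it was not called on log2(FPKM + 1) (0.33, adjusted p = 0.126) or log2(FPKM + 0.1) (0.36, adjusted p = 0.134). The Acacetin value was not called when Acacetin 2 was left out (log2 fold change 0.53). Acat2 has a near-identical neighbour, Acat3, with 44 to 268 reads per library against 564 to 1757 for Acat2, and how the authors' counting divided shared reads is uncertain.

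Hmgcs1 (ENSMUSG00000093930.3, chromosome 13), which makes HMG-CoA, had 1.80, 4.86, 8.68 and 6.82 CPM in Acacetin 1 to 4, 3.57, 2.85, 3.28 and 5.42 in OGD 1 to 4, and 4.46, 5.23, 3.97 and 8.06 in Control 1 to 4. The groups overlapped, and Acacetin 1 was the lowest and Acacetin 3 the highest of all 12 libraries. Its log2 fold change was -0.52 ± 0.39 in OGD against Control, 0.55 ± 0.39 in Acacetin against OGD and 0.03 ± 0.39 in Acacetin against Control, and none passed the test (adjusted p = 0.362, 0.835 and 0.957).

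Both mevalonate kinases fell in OGD. Mvk (ENSMUSG00000041939.15, chromosome 5), mevalonate kinase, had 27.5, 17.0, 12.5 and 13.5 CPM in Acacetin 1 to 4, 17.1, 17.4, 16.2 and 11.6 in OGD 1 to 4, and 36.7, 26.9, 31.7 and 25.7 in Control 1 to 4. Every OGD library was below every Control library, while Acacetin 1 reached into the Control range. OGD libraries averaged 15.6 ± 2.70 CPM and Control libraries 30.3 ± 5.01 CPM (SD, n = 4 each), a log2 fold change of -0.96 ± 0.24 (adjusted p = 0.00762). The value for Acacetin against Control was -0.78 ± 0.23 (adjusted p = 0.0240). That Acacetin value was not called when Acacetin 2, Acacetin 3, Acacetin 4, Control 1 or Control 3 was left out (log2 fold change -0.77 to -0.65).

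Pmvk (ENSMUSG00000027952.17, chromosome 3), the phosphomevalonate kinase of the next step, had 97.3, 64.5, 42.7 and 50.4 CPM in Acacetin 1 to 4, 58.7, 57.1, 54.2 and 38.8 in OGD 1 to 4, and 108, 99.4, 100.2 and 83.1 in Control 1 to 4. All OGD libraries were below all Control libraries, and Acacetin spanned from near the OGD level to the Control level, with Acacetin 1 at the top. The log2 fold change was -0.90 ± 0.22 in OGD against Control (adjusted p = 0.00763) and -0.62 ± 0.22 in Acacetin against Control, which did not pass (adjusted p = 0.0515). The Acacetin value passed when Acacetin 1, OGD 4 or Control 4 was left out (log2 fold change -0.89 to -0.61). It passed in DESeq2 as well (-0.63, adjusted p = 0.0215), and by limma on log2(FPKM + 1) (-0.53, adjusted p = 0.0335). With a length trend removed it passed too (-0.54, adjusted p = 0.00973), but not with only the 8 libraries compared or without both OGD 2 and OGD 3. Mvd, the decarboxylase that follows, did not overlap between OGD and Control libraries either, but its value of -0.48 ± 0.20 did not pass (adjusted p = 0.0808). It passed in DESeq2 (-0.52, adjusted p = 0.0332). In edgeR Mvd passed when Acacetin 1, Acacetin 3 or Control 4 was left out (log2 fold change -0.57 to -0.48). It passed by limma on log2(FPKM + 1) (-0.62, adjusted p = 0.0131) and log2(FPKM + 0.1) (-0.64, adjusted p = 0.0124). It also passed with a length trend removed, the replicate number as a block, only the 8 libraries compared, or no low-count filter. DESeq2 size factors in edgeR, and leaving out both Acacetin 1 and 3, gave the call as well. It was not called with any other single library left out, or without both OGD 2 and OGD 3.

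Idi1 and Fdps, which make and join the isoprenoid units, gave few reads. Idi1 had 3 to 174 reads per library and 0.142, 1.69, 4.78 and 1.29 CPM in Acacetin 1 to 4, 0.726, 1.199, 0.625 and 1.04 in OGD 1 to 4, and 0.614, 0.332, 0.754 and 1.03 in Control 1 to 4. Acacetin 3 was highest and Acacetin 1 lowest of the 12 libraries, and neither comparison with Control passed (0.39 ± 0.67 for OGD and 1.54 ± 0.65 for Acacetin, adjusted p = 0.711 and 0.0938). The Acacetin value passed when Acacetin 1 was left out (log2 fold change 1.91). Fdps averaged 3.96 CPM in Acacetin, 3.10 CPM in OGD and 4.82 CPM in Control libraries and was not called. Its level and its change are uncertain, because of the exon bases it shares with Gm43738.

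From farnesyl diphosphate the path runs to squalene and lanosterol. Fdft1, squalene synthase, averaged 85.3 ± 18.1 CPM in Acacetin, 71.4 ± 10.7 in OGD and 96.5 ± 7.80 in Control libraries, and OGD and Control did not overlap. Its log2 fold change of -0.44 ± 0.16 in OGD against Control did not pass (adjusted p = 0.0549). It passed in DESeq2 (-0.47, adjusted p = 0.0113) and by limma on log2(FPKM + 1) (-0.56, adjusted p = 0.0142). In edgeR it passed when Acacetin 1, Acacetin 3 or Control 4 was left out (log2 fold change -0.48 to -0.43). It also passed with a length trend removed (-0.50, adjusted p = 0.0237), the replicate number as a block or only the 8 libraries compared. Both other low-count filters, DESeq2 size factors in edgeR, and leaving out both Acacetin 1 and 3, gave the call as well. Fdft1 was not called with any other single library left out, or without both OGD 2 and OGD 3. In GENCODE M21, 18.3% of its exon bases lie opposite exons of Ctsb, a protease gene with 51858 to 136849 reads per library. Sqle (ENSMUSG00000022351.15, chromosome 15), squalene epoxidase, had 22.0, 38.4, 37.3 and 40.0 CPM in Acacetin 1 to 4, 26.3, 29.1, 28.4 and 40.9 in OGD 1 to 4, and 23.4, 27.6, 18.7 and 31.0 in Control 1 to 4. All groups overlapped, and Acacetin 1 stood below the other Acacetin libraries. The values of 0.31 ± 0.21 for OGD and 0.45 ± 0.21 for Acacetin against Control did not pass (adjusted p = 0.304 and 0.125). The Acacetin value passed when Acacetin 1 was left out (log2 fold change 0.61).

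Lss (ENSMUSG00000033105.13, chromosome 10), lanosterol synthase, had 36.9, 42.8, 27.1 and 30.9 CPM in Acacetin 1 to 4, 33.9, 36.3, 32.8 and 27.8 in OGD 1 to 4, and 22.8, 23.4, 21.5 and 23.5 in Control 1 to 4. The Control libraries were tightly grouped, and every Acacetin and OGD library lay above them. The log2 fold change was 0.52 ± 0.15 in OGD against Control (adjusted p = 0.0180) and 0.59 ± 0.15 in Acacetin against Control (adjusted p = 0.00999). With a trend on gene length removed neither was called, at 0.56 and 0.53. By limma the OGD value was not called on log2(FPKM + 1) (0.25, adjusted p = 0.306) or log2(FPKM + 0.1) (0.34, adjusted p = 0.296). Without both OGD 2 and OGD 3 the OGD value was 0.44 and not called. The OGD value also was not called when OGD 2 or Control 3 was left out (log2 fold change 0.46 to 0.49).

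The late steps turn lanosterol into cholesterol. Tm7sf2 (ENSMUSG00000024799.17, chromosome 19), a sterol reductase, had 28.1, 16.5, 12.9 and 15.7 CPM in Acacetin 1 to 4, 19.4, 15.6, 17.97 and 14.4 in OGD 1 to 4, and 42.0, 32.4, 34.3 and 31.6 in Control 1 to 4. Every Acacetin and OGD library was below every Control library. OGD libraries averaged 16.8 ± 2.27 CPM and Control libraries 35.1 ± 4.76 CPM (SD, n = 4 each), which gave a log2 fold change of -1.06 ± 0.21 (adjusted p = 0.00234). Acacetin against Control gave -0.94 ± 0.21 (adjusted p = 0.00570). It shares 12.1% of its exon bases with Vps51 on the same strand in GENCODE M21. Vps51, a vesicle-tethering gene, was called lower as well, at -0.70 in OGD and -0.61 in Acacetin against Control, and how reads in the shared exons were divided is uncertain. Lbr, which encodes the reductase with the same activity as Tm7sf2, was not called in OGD against Control (0.52 ± 0.25, adjusted p = 0.144).

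Ebp (ENSMUSG00000031168.15, chromosome X), the sterol isomerase, had 62.1, 51.0, 35.8 and 41.6 CPM in Acacetin 1 to 4, 51.5, 65.0, 55.5 and 37.7 in OGD 1 to 4, and 36.1, 32.2, 39.4 and 29.1 in Control 1 to 4. OGD 4 lay within the Control range and the other OGD libraries above it. The log2 fold change of 0.62 ± 0.19 in OGD against Control passed (adjusted p = 0.0269), and the 0.48 ± 0.19 in Acacetin against Control did not (adjusted p = 0.0784). Without both OGD 2 and OGD 3 the OGD value was 0.38 and was not called. The OGD value also was not called when OGD 2, Control 1, Control 2 or Control 4 was left out (log2 fold change 0.50 to 0.64). The Acacetin value passed when Acacetin 3 was left out (log2 fold change 0.59). It also passed without both OGD 2 and OGD 3 (0.52, adjusted p = 0.0388) and by limma on log2(FPKM + 1) (0.56, adjusted p = 0.0101).

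Hsd17b7 and Sc5d were called only in the comparison of Acacetin with Control, which does not show that they differ between Acacetin and OGD. Hsd17b7, a ketosterol reductase, had 1.80, 3.64, 4.09 and 3.78 CPM in Acacetin 1 to 4, 2.12, 1.95, 3.28 and 3.57 in OGD 1 to 4, and 1.11, 1.62, 1.82 and 2.12 in Control 1 to 4. The groups overlapped, and its log2 fold change was 1.00 ± 0.32 in Acacetin against Control (adjusted p = 0.0333) and 0.70 ± 0.32 in OGD against Control (adjusted p = 0.120). Sc5d, a sterol desaturase, had 5.98, 12.5, 16.3 and 15.03 CPM in Acacetin 1 to 4, 7.48, 11.3, 7.11 and 10.9 in OGD 1 to 4, and 6.84, 6.64, 5.87 and 8.66 in Control 1 to 4. Acacetin 2, 3 and 4 lay above all Control libraries and Acacetin 1 lay among them. For Sc5d the log2 fold change was 0.83 ± 0.28 (adjusted p = 0.0394), against 0.40 ± 0.28 in OGD against Control. The call of Hsd17b7 held in 15 of 23 alternative settings and that of Sc5d in 13. Hsd17b7 was not called when Acacetin 2, Acacetin 3, Acacetin 4, Control 1, Control 2 or Control 3 was left out (log2 fold change 0.84 to 1.04). Sc5d was not called when Acacetin 2, Acacetin 3, Acacetin 4, Control 1, Control 2 or Control 3 was left out (log2 fold change 0.68 to 0.83). Without both OGD 2 and OGD 3 Sc5d was not called (0.91, adjusted p = 0.0552). By limma on log2(FPKM + 1) neither was called, Hsd17b7 at 0.34, adjusted p = 0.0779, and Sc5d at 0.59, adjusted p = 0.128.

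The remaining late genes were not called in either comparison with Control. Cyp51, the lanosterol demethylase, averaged 19.2 ± 4.34 CPM in Acacetin, 16.1 ± 4.10 in OGD and 12.8 ± 2.18 in Control libraries. Msmo1, the methylsterol oxidase that acts after it, averaged 55.4 ± 12.9, 43.4 ± 7.46 and 38.9 ± 5.98 CPM in Acacetin, OGD and Control. Their values in Acacetin against Control, 0.59 ± 0.21 and 0.51 ± 0.19, missed the threshold narrowly at an adjusted p of 0.0515 and 0.0561, and passed in DESeq2 (adjusted p = 0.0240 and 0.0345). In edgeR Cyp51 passed when Acacetin 1, OGD 2, OGD 3 or Control 4 was left out (log2 fold change 0.59 to 0.75). It also passed without both OGD 2 and OGD 3 (0.64, adjusted p = 0.0334). Msmo1 passed when Acacetin 1 or Control 4 was left out (log2 fold change 0.65 to 0.66). Nsdhl, which removes the methyl groups with Msmo1, stayed at 15.4 ± 2.30, 12.8 ± 1.49 and 14.8 ± 0.989 CPM. Dhcr7, the reductase of the last step, averaged 35.0 ± 7.78, 33.8 ± 2.20 and 41.4 ± 3.00 CPM in Acacetin, OGD and Control, and OGD lay below Control without overlap (-0.29 ± 0.15, adjusted p = 0.159).

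Among the genes of SREBP control, edgeR called neither transcription factor in the comparisons with Control, while Scap and Insig2 were called. Srebf1 (ENSMUSG00000020538.16, chromosome 11), which encodes the SREBP known for fatty acid synthesis, had 76.6, 63.6, 49.4 and 53.7 CPM in Acacetin 1 to 4, 72.6, 51.9, 51.5 and 52.8 in OGD 1 to 4, and 86.7, 64.7, 64.8 and 60.9 in Control 1 to 4. Srebf2 (ENSMUSG00000022463.9, chromosome 15), which encodes the SREBP known for cholesterol synthesis, had 137, 130.1, 104 and 112 CPM in Acacetin 1 to 4, 133, 122, 109 and 118 in OGD 1 to 4, and 151, 138, 126 and 144 in Control 1 to 4. The groups overlapped for both. In OGD against Control the log2 fold change was -0.28 ± 0.17 for Srebf1 and -0.21 ± 0.12 for Srebf2 (adjusted p = 0.256 and 0.220), with 95% intervals of -0.64 to 0.09 and -0.48 to 0.05. In Acacetin against Control it was -0.19 ± 0.17 and -0.21 ± 0.12 (adjusted p = 0.426 and 0.212). DESeq2 called Srebf2 lower in OGD against Control (-0.25, adjusted p = 0.0442). SREBPs are activated by cleavage, which RNA counts do not measure.

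Scap (ENSMUSG00000032485.15, chromosome 9), the escort of SREBPs to the Golgi, had 62.2, 69.4, 50.1 and 46.6 CPM in Acacetin 1 to 4, 65.4, 64.1, 63.3 and 61.9 in OGD 1 to 4, and 44.4, 34.6, 37.2 and 34.3 in Control 1 to 4. The OGD libraries lay close together, and all Acacetin and OGD libraries exceeded all Control libraries. For Scap it came to a log2 fold change of 0.76 ± 0.14 in OGD against Control (adjusted p = 0.00138) and 0.60 ± 0.14 in Acacetin against Control (adjusted p = 0.00692). With the length trend removed the Acacetin value was 0.53 and not called.

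Insig2 (ENSMUSG00000003721.15, chromosome 1), which retains SCAP in the endoplasmic reticulum, had 10.4, 9.32, 10.0 and 11.1 CPM in Acacetin 1 to 4, 9.13, 8.84, 7.81 and 8.64 in OGD 1 to 4, and 15.6, 17.96, 14.52 and 21.1 in Control 1 to 4. The groups were fully separate, with every OGD library lowest, every Control library highest and Acacetin between. OGD libraries averaged 8.60 ± 0.565 CPM and Control libraries 17.3 ± 2.92 CPM (SD, n = 4 each), a log2 fold change of -1.01 ± 0.16 (adjusted p = 0.000456). It was -0.76 ± 0.15 in Acacetin against Control (adjusted p = 0.00302), and on FPKM with limma this value was -0.47 and not called. Its sister Insig1 (ENSMUSG00000045294.12, chromosome 5), itself known as an SREBP target, had 8.69, 13.7, 11.7 and 10.7 CPM in Acacetin 1 to 4, 10.3, 16.2, 11.95 and 11.4 in OGD 1 to 4, and 9.21, 9.58, 10.4 and 13.8 in Control 1 to 4. The groups overlapped and its values of 0.21 ± 0.20 for OGD and 0.06 ± 0.20 for Acacetin against Control did not pass (adjusted p = 0.473 and 0.841).

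Fasn (ENSMUSG00000025153.10, chromosome 11), fatty acid synthase, gave the smallest p of the 33 members. It had 143, 209, 146 and 122 CPM in Acacetin 1 to 4, 169, 164, 174 and 202 in OGD 1 to 4, and 86.6, 75.4, 75.8 and 61.9 in Control 1 to 4. Every Acacetin and OGD library was well above every Control library. OGD libraries averaged 177 ± 16.8 CPM and Control libraries 74.9 ± 10.1 CPM (SD, n = 4 each), a 2.37-fold difference (log2 fold change 1.24 ± 0.17, adjusted p = 0.000221). For Acacetin against Control the value was 1.05 ± 0.17 (adjusted p = 0.000756). Scd2, the desaturase that follows Fasn, did not share this pattern and is described with the comparison of Acacetin and OGD. Stard4, a carrier of sterols between membranes, averaged 7.67 ± 1.10, 6.18 ± 0.652 and 5.85 ± 1.35 CPM in Acacetin, OGD and Control and was not called.

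**Figure D4:**
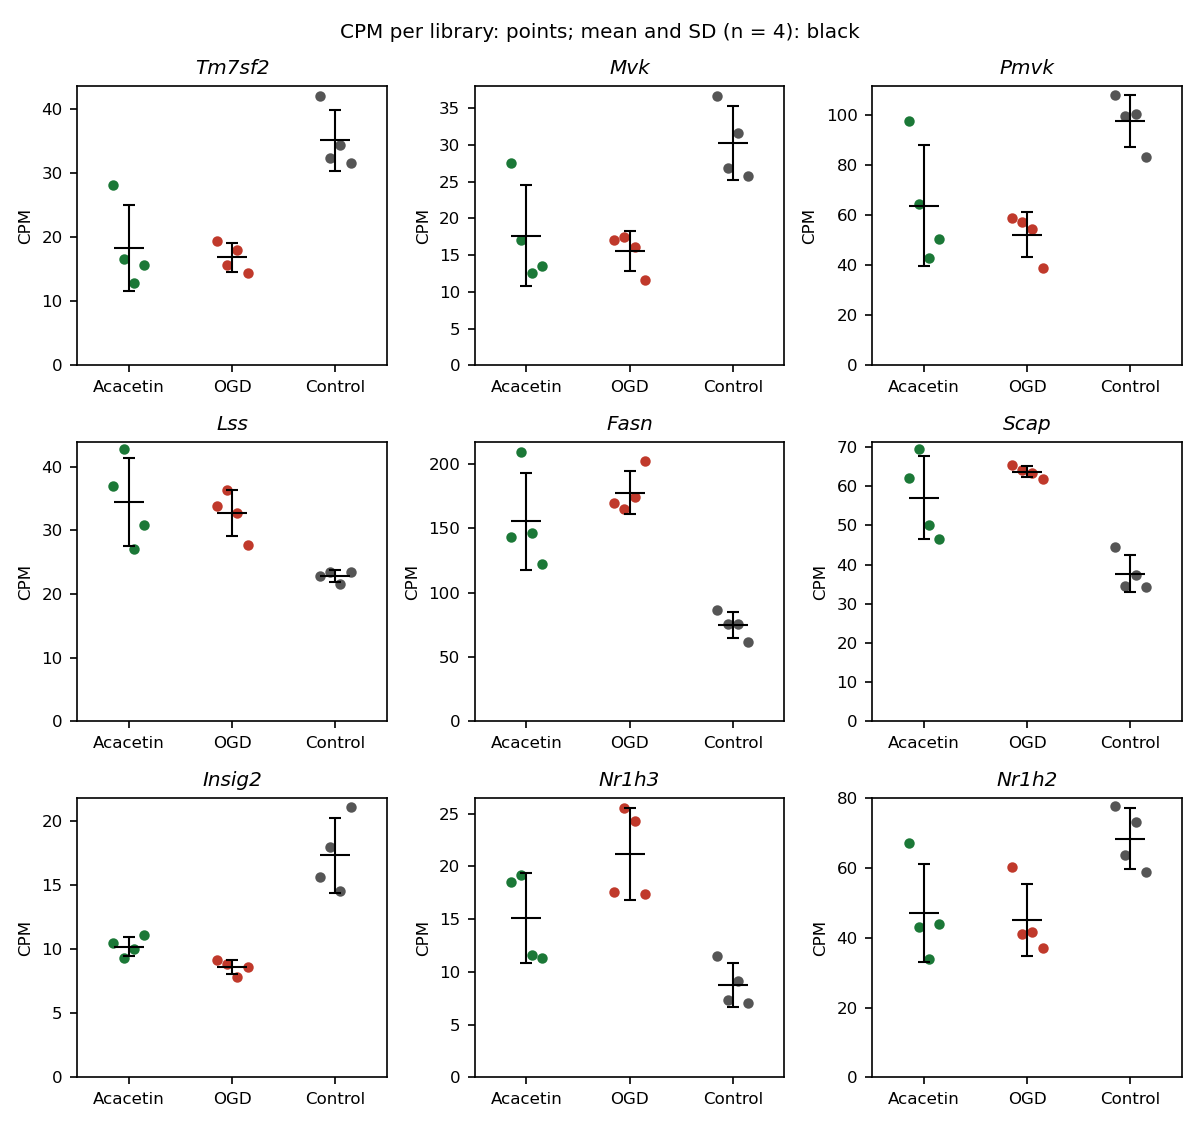
CPM of 9 members in each library (points) with the mean and SD of each group in black, n = 4, for Acacetin (green), OGD (red) and Control (grey). Tm7sf2, Mvk, Pmvk, Insig2 and Nr1h2 were called lower and Lss, Fasn, Scap and Nr1h3 higher in OGD against Control. All vertical axes start at 0.

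The receptors of the LXR set were called in opposite directions in OGD against Control, with the lower call, Nr1h2, held in only 14 of 23 alternative settings. Nr1h3 (ENSMUSG00000002108.11, chromosome 2), which encodes LXR alpha, the form known from macrophages, had 18.5, 19.2, 11.6 and 11.3 CPM in Acacetin 1 to 4, 17.52, 25.53, 24.3 and 17.4 in OGD 1 to 4, and 11.5, 7.30, 9.16 and 7.03 in Control 1 to 4. Every OGD library was above every Control library, and Acacetin 4 lay just under Control 1. OGD libraries averaged 21.2 ± 4.34 CPM and Control libraries 8.75 ± 2.06 CPM (SD, n = 4 each), a log2 fold change of 1.27 ± 0.23 (adjusted p = 0.00131). In Acacetin against Control it was 0.79 ± 0.23 (adjusted p = 0.0223), and its groups overlapped. That Acacetin value was not called when Acacetin 2 or Control 2 was left out (log2 fold change 0.66 to 0.71).

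Nr1h2 (ENSMUSG00000060601.14, chromosome 7), which encodes the broadly expressed LXR beta, had 67.1, 43.1, 33.9 and 44.0 CPM in Acacetin 1 to 4, 60.3, 41.2, 41.8 and 37.0 in OGD 1 to 4, and 77.8, 63.7, 73.2 and 59.0 in Control 1 to 4. OGD 1 and Acacetin 1 lay within the Control range and all other OGD and Acacetin libraries below it. The log2 fold change was -0.60 ± 0.20 in OGD against Control (adjusted p = 0.0394), and without both OGD 2 and OGD 3 it was -0.49 and not called. The OGD value also was not called when Acacetin 2, Acacetin 4, OGD 2, OGD 3, OGD 4, Control 1, Control 2 or Control 3 was left out (log2 fold change -0.64 to -0.51). In Acacetin against Control it was -0.54 ± 0.20 and did not pass (adjusted p = 0.0615). It passed when Acacetin 1 or OGD 1 was left out (log2 fold change -0.76 to -0.54). DESeq2 called it (-0.55, adjusted p = 0.0321). Per length, Nr1h2 remained the more abundant receptor RNA, at 12.8 FPKM in Acacetin, 10.6 in OGD and 17.3 in Control libraries, beside 5.53, 6.37 and 2.94 FPKM for Nr1h3.

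The export pumps, known LXR targets, were not called. Abca1 (ENSMUSG00000015243.5, chromosome 4) was close to absent, with 0 to 42 reads per library, and had 0.570, 0.204, 1.15 and 1.03 CPM in Acacetin 1 to 4, 0.568, 0, 0.312 and 0.455 in OGD 1 to 4, and 0.737, 0.954, 0.555 and 0.962 in Control 1 to 4. The 0 reads of OGD 2 allow a level of up to 0.150 CPM (3 counts, counting error only). Its values of -1.18 ± 0.63 for OGD and -0.11 ± 0.58 for Acacetin against Control carried large errors (adjusted p = 0.183 and 0.906). Abcg1 (ENSMUSG00000024030.8, chromosome 17) had 29.6, 27.6, 23.0 and 31.7 CPM in Acacetin 1 to 4, 27.1, 17.6, 20.2 and 27.4 in OGD 1 to 4, and 30.4, 29.8, 27.9 and 32.3 in Control 1 to 4. Every OGD library lay below every Control library, but the log2 fold change of -0.38 ± 0.16 did not pass (adjusted p = 0.0905), and it passed in DESeq2 (adjusted p = 0.0283). The Acacetin value against Control was -0.10 ± 0.16 (adjusted p = 0.645).

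Cholesterol leaves lysosomes through the pair Npc1 and Npc2. Npc2, the soluble carrier, was the most abundant of the 33 members per length, at 163 FPKM in Acacetin, 168 in OGD and 231 in Control libraries. It had 1299.6, 934, 710.4 and 919 CPM in Acacetin 1 to 4, 1239, 1308, 1214 and 973 in OGD 1 to 4, and 1309, 1516, 1591 and 1467 in Control 1 to 4. All Acacetin and all OGD libraries were below all Control libraries, though OGD 2 was barely below Control 1. Its log2 fold change was -0.61 ± 0.18 in Acacetin against Control (adjusted p = 0.0257) and -0.31 ± 0.18 in OGD against Control (adjusted p = 0.225). The Acacetin value of Npc2 was not called when Acacetin 2, Acacetin 3, Acacetin 4, Control 2 or Control 3 was left out (log2 fold change -0.59 to -0.48). It was also not called with only the 8 libraries compared (-0.60, adjusted p = 0.0558), and by limma on log2(FPKM + 1) the OGD value passed (-0.47, adjusted p = 0.0346). Npc1, the membrane partner, averaged 22.5 ± 5.16, 22.8 ± 8.21 and 24.8 ± 4.50 CPM in Acacetin, OGD and Control and was not called. Soat1, which stores cholesterol as esters, had 55.2, 86.9, 108 and 115 CPM in Acacetin 1 to 4, 58.9, 62.1, 73.1 and 109 in OGD 1 to 4, and 55.7, 47.1, 48.4 and 59.0 in Control 1 to 4. Acacetin 1 lay within the Control range and the other Acacetin libraries above it, and the log2 fold change was 0.80 ± 0.23 in Acacetin against Control (adjusted p = 0.0204) and 0.53 ± 0.23 in OGD against Control (adjusted p = 0.1001). The Acacetin value of Soat1 was not called when Acacetin 4, Control 2 or Control 3 was left out (log2 fold change 0.67 to 0.76). By limma on log2(FPKM + 1) it was not called (0.77, adjusted p = 0.105). Its OGD value passed when Acacetin 1 was left out (log2 fold change 0.53). That value also passed with only the 8 libraries compared, the replicate number as a block, or a length trend removed (adjusted p = 0.0259, 0.0484 and 0.00834). In DESeq2 it did not pass (adjusted p = 0.126).

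Acacetin against OGD addresses what the flavone adds to deprived cells. The 3 members with the smallest p were Scd2, Nr1h3 and Msmo1, and none passed the test. Scd2 (ENSMUSG00000025203.7, chromosome 19), the stearoyl-CoA desaturase of brain and macrophages, had 78.8, 86.1, 111 and 142 CPM in Acacetin 1 to 4, 71.2, 36.1, 53.1 and 80.1 in OGD 1 to 4, and 80.9, 75.5, 75.0 and 82.8 in Control 1 to 4. OGD 2 and OGD 3 were the lowest of the 12 libraries, and Acacetin 3 and Acacetin 4 the highest, while Acacetin 1 lay under OGD 4. The means were 104 ± 28.6 CPM in Acacetin and 60.1 ± 19.6 CPM in OGD (SD, n = 4 each), a log2 fold change of 0.79 ± 0.23 (adjusted p = 0.712 by edgeR). Nr1h3 was lower in Acacetin than in OGD by its estimate, -0.48 ± 0.23 (adjusted p = 0.8287), and Msmo1 was higher by its estimate, 0.35 ± 0.19 (adjusted p = 0.8287). Insig2 was the single member whose Acacetin and OGD libraries did not overlap, against 2.35% of all tested genes, with a difference of 0.24 ± 0.15 (adjusted p = 0.8287).

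For the members called in OGD against Control, the 95% intervals of Acacetin against OGD show what these libraries can tell. The interval was -0.54 to 0.16 for Fasn, -0.34 to 0.57 for Tm7sf2, -0.33 to 0.68 for Mvk, -0.09 to 0.58 for Insig2 and -0.46 to 0.14 for Scap on the log2 scale. It was -0.97 to 0.007 for Nr1h3, -0.19 to 0.76 for Pmvk and -0.55 to 0.27 for Ebp. For Acat2, Lss and Nr1h2 it was -0.26 to 0.43, -0.24 to 0.39 and -0.38 to 0.49. All of these include 0, that of Nr1h3 only narrowly. A p that misses the threshold does not show that Acacetin and OGD libraries were alike.

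By estimate alone, 17 of the 18 synthesis genes were higher in Acacetin than in OGD, with a median log2 fold change of 0.26, and the exception was Ebp at -0.14 ± 0.19 (adjusted p = 0.920). In the SREBP set 5 of 8 were above 0 (median 0.04) and in the LXR set 4 of 7 (median 0.06). Over all 33 members 26 were above 0, with a median of 0.23, beside 6296 of 13249 tested genes and a median of -0.02. Of the further lists described below, the fatty acid genes had 10 of 11 above 0 and the LXR partners and targets 5 of 6. Sterol trafficking genes had 7 of 12, other mevalonate branches 3 of 7 and oxysterol genes 0 of 2. None of these differences passed the test gene by gene, and genes of a pathway are not independent of each other. The counts thus describe these libraries. Across the alternative settings 14 to 18 synthesis genes were above 0, with medians from 0.15 to 0.51, and 15 to 18 were above the median of all genes under the same setting.

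Other genes of the same pathways were read from 6 further lists. Of 11 tested fatty acid genes known to answer to SREBPs, 1 was higher and 2 lower in OGD against Control, and 3 were higher and 2 lower in Acacetin against Control. These are 27.3% and 45.5% of the tested list, against 28.8% and 26.9% of all tested genes. Elovl1, a fatty acid elongase, had 181 CPM in OGD and 105 CPM in Control (log2 fold change 0.78 ± 0.19, adjusted p = 0.00620). Acss2, which makes acetyl-CoA from acetate, had 4.13 CPM in OGD and 8.77 CPM in Control (-1.09 ± 0.17, adjusted p = 0.000581), and Lpin1, a phosphatidate phosphatase, 1.47 CPM in OGD and 4.58 CPM in Control (-1.62 ± 0.36, adjusted p = 0.00461). Fasn and Acss2, which work in the same pathway, thus moved in opposite directions in OGD. Set against Control, Acacetin libraries had Acss2 and Lpin1 called lower (-0.97 ± 0.17 and -1.23 ± 0.36) and Me1, malic enzyme, higher (0.61 ± 0.17, adjusted p = 0.00146, 0.0209 and 0.0169).

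Of 8 genes of SREBP processing and INSIG-linked degradation, 1 was higher and 1 lower in OGD against Control, and 2 were higher and 0 lower in Acacetin against Control. Among all tested genes 28.8% and 26.9% were called in these comparisons. Rnf145, which encodes a ubiquitin ligase of the endoplasmic reticulum, had 24.7 CPM in OGD and 16.3 CPM in Control (0.61 ± 0.15, adjusted p = 0.00682). Paqr3, which tethers SCAP to the Golgi, fell to 0.789 CPM in OGD, against 1.83 CPM in Control (-1.18 ± 0.31, adjusted p = 0.0108). With Acacetin set against Control, Rnf145 and the degradation scaffold Erlin2 were higher (0.64 ± 0.15 and 0.80 ± 0.24, adjusted p = 0.00580 and 0.0226).

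Of 6 tested LXR partners and targets, 0 were higher and 2 lower in each comparison with Control. This is 33.3% of the tested list in each, against 28.8% of all tested genes in OGD and 26.9% in Acacetin against Control. Rxra, the retinoid X receptor with which LXRs pair, had 43.0 CPM in Acacetin, 42.7 CPM in OGD and 75.9 CPM in Control, a log2 fold change of -0.83 ± 0.13 in OGD (adjusted p = 0.000545) and -0.82 ± 0.13 in Acacetin against Control (adjusted p = 0.000824). Arl4c, an LXR target that encodes a small GTPase, fell in OGD (-0.83 ± 0.20, adjusted p = 0.00726). Pltp, a phospholipid transfer protein gene, was lower in Acacetin than in Control (-0.84 ± 0.22, adjusted p = 0.0142). Nr1h3 was thus called higher in OGD while its partner Rxra and its paralog Nr1h2 were called lower. The call of Nr1h2 held in only 14 of 23 alternative settings, and that of Nr1h3 in all 23.

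Of 12 tested genes of sterol trafficking and ester hydrolysis, 2 were higher and 1 lower in OGD against Control, and 1 was higher and 1 lower in Acacetin against Control. These are 25% and 16.7% of the tested list, against 28.8% and 26.9% of all tested genes. Gramd1a, a carrier of plasma membrane cholesterol, had 35.3 CPM in Acacetin, 34.7 CPM in OGD and 80.6 CPM in Control. Its log2 fold change was -1.22 ± 0.14 in OGD (adjusted p = 0.000104) and -1.19 ± 0.14 in Acacetin against Control (adjusted p = 0.000182). Tmem97, a sterol-regulated partner of NPC1, had 327 CPM in Acacetin, 385 CPM in OGD and 148 CPM in Control (1.38 ± 0.22 in OGD and 1.15 ± 0.22 in Acacetin against Control, adjusted p = 0.000596 and 0.00231). Scarb2, a lysosomal membrane receptor, was higher in OGD (0.52 ± 0.12, adjusted p = 0.00474).

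Of 7 genes of other mevalonate branches and the sterol reductase Lbr, 2 were higher and 0 lower in OGD against Control, and 3 were higher and 0 lower in Acacetin against Control. These are 28.6% and 42.9% of the list, against 28.8% and 26.9% of all tested genes. Fnta, a subunit of the enzymes that attach farnesyl and geranylgeranyl groups to proteins, and Ggps1, which makes the geranylgeranyl unit, were higher in OGD (0.57 ± 0.13 and 0.66 ± 0.21, adjusted p = 0.00599 and 0.0285). Fnta, its geranylgeranyl partner Pggt1b, and Nus1 of dolichol synthesis were higher in Acacetin against Control (0.46 ± 0.13, 1.31 ± 0.38 and 0.39 ± 0.14, adjusted p = 0.0210, 0.0218 and 0.0471). The 2 tested genes of oxysterol metabolism, Cyp27a1 and Gpr183, were not called. In Acacetin against OGD, 0 genes of these lists passed the test.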

How the data were processed

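RNA from 12 samples of BV2 cells was extracted with TRIzol, treated with DNase and made into stranded mRNA libraries read as pairs, per the labels' protocols. Tools named in the submitters' processing notes are bcl2fastq, HISAT2 and DESeq2, without versions, and the build is GRCm39. How reads were assigned to genes (counter, annotation release, strand) is not given in the sources used here, so reads of genes on opposite strands may not be apart. The authors deposited whole-number read counts per gene, not normalized, for 24934 genes. The FPKM values deposited by the authors, for 24728 genes, scale reads by gene length and library depth. All columns matched a library by name, with 0 left over.

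Counts were fitted with edgeR 4.0.16 in R 4.3.3 (filterByExpr with a minimum count of 10 and minimum total of 15, TMM scaling, 1 mean per group over all 12 libraries, quasi-likelihood test, two-sided). The filter kept 13249 genes. Benjamini-Hochberg adjustment ran over these genes for each comparison separately, with the threshold for a call at 0.05. The fits were tested on simulated counts. The 95% intervals come from the moderated degrees of freedom. Libraries of a group differed by more than sampling noise, so none was counted as a duplicate. The libraries carry no molecular identifiers, so the limit given for a count of 0 covers counting error only.

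The members and all gene lists were chosen with earlier results of these data known. By rule, values per library go to the members called in OGD against Control (up to 6, 4 and 4 in the synthesis, SREBP and LXR sets, by p), to Hmgcs1, Sqle, Insig1, Srebf1, Srebf2, Nr1h3, Abca1 and Abcg1, and to the 3 smallest p in Acacetin against OGD. From each further list up to 3 called genes with the smallest p per comparison were named. The other members with values per library, and genes that share exons or sequence with members, were chosen after their values were seen. Of the further lists, Ch25h, Cyp39a1, Cyp7b1 and Smpdl3a were not analysed here. A further gene of the list on SREBP processing is not reported here and is left out of its counts.

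Alternatives were DESeq2 1.42.0, its size factors in edgeR, no filter, a mean of at least 1 CPM, only the 8 libraries compared, the replicate number as a block, limma 3.58.1 on log2(FPKM + 1) and log2(FPKM + 0.1), a lowess trend on gene length removed (span 0.5), and leaving out OGD 2 and 3, Acacetin 1 and 3, or each library. Promoter windows are RefSeq's on GRCm38.p6, and exon overlaps were read from GENCODE M21 on GRCm38. Both were used apart from the GRCm39 counts, by gene symbol.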

Additional observations from a re-analysis of the deposited data

Results flagged for a closer look

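Each of the 33 members was looked at within each group of 4 libraries for a library whose gap to its neighbour exceeded the 95% critical value of Dixon's test, as a share of the group's range. Of 99 such tests 6 passed, and chance gives about 1 in 20. Srebf1 stood out in both OGD and Control. It had 72.6 CPM in OGD 1, where the other OGD libraries had 51.5 to 52.8 CPM, and 86.7 CPM in Control 1, where the other Control libraries had 60.9 to 64.8 CPM. Sqle had 22.0 CPM in Acacetin 1, and the other Acacetin libraries had 37.3 to 40.0 CPM. Nsdhl had 14.99 CPM in OGD 2, and the other OGD libraries had 11.9 to 12.3 CPM. Npc1 had 35.0 CPM in OGD 4, and the other OGD libraries had 17.2 to 20.2 CPM. Fdft1 had 108 CPM in Control 3, and the other Control libraries had 91.5 to 93.3 CPM.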

How the results depend on the processing

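The counts of members called (6 higher and 5 lower in OGD against Control, 8 and 4 in Acacetin against Control) were recomputed under 23 alternatives. Of the calls, 7 of 11 in OGD against Control (Mvk, Pmvk, Tm7sf2, Scap, Insig2, Fasn and Nr1h3) and 2 of 12 in Acacetin against Control (Tm7sf2 and Fasn) held in all 23, and Acacetin against OGD gave 0 members in all 23. In OGD against Control, members called lower numbered 9 with DESeq2, 8 with its size factors in edgeR, 9 with limma on log2(FPKM + 1) and 8 on log2(FPKM + 0.1), and members called higher numbered 3 without OGD 2 and 3. Leaving out each library in turn gave 3 (without OGD 2) to 7 (without Acacetin 1) higher and 4 to 7 lower in OGD against Control, and 4 (without Control 2) to 12 (without Acacetin 1) higher and 2 (without Control 3) to 7 (without Acacetin 1) lower in Acacetin against Control. The labels do not say what the replicate numbers share, and the samples were not treated as paired: deviations of same-numbered libraries correlated at -0.29 to 0.51, above 0 in 9 of 12 cases, and 11 of 24 correlated best with their own number. This is a hint from the data and not from the design. With the replicate number as a block, 8 members were higher and 9 lower in OGD against Control, 12 and 6 in Acacetin against Control, and 0 and 0 in Acacetin against OGD. The block called Srebf1 lower in OGD against Control (-0.28).

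On FPKM the share of higher genes among all calls in OGD against Control was 32.2% (33.7% with the smaller pseudocount), against 56.3% on counts, and in Acacetin against Control 60% with the smaller pseudocount, against 52%. The median of all genes on log2(FPKM + 0.1) was -0.11 in OGD against Control, 0.24 in Acacetin against OGD and 0.17 in Acacetin against Control, and on log2(FPKM + 1) it was 0.16 in Acacetin against OGD.

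Estimates near 0 changed sign under some alternatives, and the cause was not tested. In OGD against Control, Stard4 was -0.018 and -0.045 on log2(FPKM + 1) and log2(FPKM + 0.1), and -0.024 to 0.22 leaving out each library. Without OGD 2 and 3, Msmo1 was -0.034 and Npc1 was 0.091. In Acacetin against OGD, values on log2(FPKM + 1) and log2(FPKM + 0.1) were 0.11 and 0.14 for Insig1, 0.068 and 0.075 for Fasn, and 0.14 and 0.15 for Ebp. Without OGD 2 and 3, Insig1 was 0.099, Srebf1 -0.0031, Srebf2 -0.014 and Ebp 0.13. Srebf2 was -0.0017 with the block and -0.029 with the length trend removed. Leaving out each library gave -0.26 to 0.0035 for Insig1, -0.044 to 0.22 for Srebf1 and -0.064 to 0.068 for Srebf2. In Acacetin against Control, Hmgcs1 was -0.036 with the block and -0.0055 with the length trend removed. Values on log2(FPKM + 1) were 0.0025 for Abca1, 0.023 for Abcg1 (0.027 on log2(FPKM + 0.1)) and 0.0093 for Npc1, which was 0.054 without Acacetin 1 and 3. Leaving out each library gave -0.26 to 0.36 for Hmgcs1, -0.040 to 0.12 for Nsdhl, -0.049 to 0.25 for Insig1, -0.42 to 0.21 for Abca1 and -0.26 to 0.0024 for Npc1. Counts limit the precision for Abca1 (0 to 42 reads per library) and Idi1 (3 to 174 reads).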
